A study of Mus musculus with 135 samples.

Results

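Molecular chaperones and their regulators were followed through mouse oocytes, early embryos and embryonic stem cells in which members of the Obox homeobox family had been deleted, knocked down or overexpressed. The genes were chosen by name: every gene beginning with Hsp and a letter from a to h or a digit, Dnaja, Dnajb or Dnajc with a number, or Cct2 to Cct8, together with Tcp1, Hsf1 and Hsf2. The rule found 87 of the 24116 gene names used in each of 7 expression tables. They comprised 11 HSP70 genes, 3 HSP110 genes, 3 HSP90 genes, 7 small heat shock proteins, the 2 subunits of the mitochondrial chaperonin, 10 genes of the cytosolic chaperonin (TRiC/CCT) or related to it, 4 DNAJA, 13 DNAJB and 28 DNAJC genes, and 2 heat shock factors. A further 4 carry a matching name without being chaperones of these families: Hspbp1, a nucleotide exchange factor of HSP70, Hspbap1, a partner of small heat shock proteins, Hspb11, and Hspg2, which encodes the basement membrane proteoglycan perlecan. The values of 4 members, Dnajb8, Dnajc6, Hspa12b and Hspb7, stayed below 1 FPKM in all 107 RNA libraries.

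HSP70 proteins bind exposed hydrophobic stretches of unfolded chains in cycles of ATP hydrolysis. J-domain proteins (DNAJ) deliver clients and start the hydrolysis, while HSP110 proteins and other exchange factors release the nucleotide. HSP90 acts later on signalling proteins and transcription factors, the cytosolic chaperonin folds actin and tubulin inside its ring, and the heat shock factor HSF1 binds repeats of nGAAn to switch on the inducible genes under protein stress. In mouse embryos the inducible HSP70 genes Hspa1a and Hspa1b are known as some of the earliest transcribed genes, and oocytes are known to rely on maternal Hsf1.

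RNA was measured by Smart-seq2, a full-length method for minute amounts of RNA, in 107 of the 135 samples, and the other 28 were not analysed here. The oocyte and embryo groups were Obox KO full-grown oocytes (FGO) and metaphase II (MII) oocytes, 2 libraries each; Obox mzKO embryos, which lack both maternal and zygotic Obox, as early 2-cell (2), late 2-cell (3), collected when controls were at the 4-cell stage (3) and arrested 2-cell embryos at blastocyst time (2); and wild-type FGO (2), MII (2), early 2-cell (2), late 2-cell (3), 4-cell (3) and blastocyst (2) samples. Single libraries came from mzKO embryos given Obox157, Obox3 or Obox4 RNA. Late 2-cell Obox mKO embryos (maternal knockout) and wild-type controls had 2 libraries each, and mKO and control blastocysts 1 each. Wild-type embryos injected with Obox1, Obox2, Obox3 or Obox5 RNA or water had 1 library each as late 2-cell embryos and as blastocysts. Obox-- embryos (3 early and 4 late 2-cell) were set against Obox+- embryos (3 and 3), so the controls carry a knockout allele too. For maternal knockdown, short interfering RNAs against Obox1 and Obox2 together, Obox5 or Obox7, or a control RNA, were injected into full-grown oocytes that became late 2-cell parthenotes, embryos activated without sperm; for zygotic knockdown, RNAs against Obox3, Obox4, Obox6 or Obox8 were injected into zygotes. Embryonic stem cells (mESC) in 2i medium overexpressed Obox3 (4), Obox5 (4) or GFP (5), and a second set combined Nr5a2 knockout or wild-type cells with each of these 3 constructs, 2 libraries each. The labels do not say that replicate libraries came from separate animals or cultures, so the p-values measure the spread between libraries. Strain and age are not given in the labels.

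Expression is given in FPKM, a read density per length of transcript and per sequenced library, so levels of different genes can be set side by side. FPKM is a share of a library: the sums ran from 37752 to 535770, the 45S ribosomal precursor Rn45s took 0.114% to 71.5%, and 2167 to 10583 genes reached 1 FPKM. The arrested Obox mzKO libraries stood apart, with 55.4 and 71.5% in Rn45s and only 3979 and 2167 genes at 1 FPKM. The knockout held in the labels: Obox5 was at 0 and 1.02 FPKM in Obox KO FGO and 2229 and 2027 FPKM in wild-type FGO. Some libraries go against their labels. The first library labelled arrested Obox mzKO had 59.7 FPKM of Obox3 while the second had 0, and results on these embryos are given with and without it. Among stem cells the first GFP library had 37.2 FPKM of Obox3 and 19.2 FPKM of Obox5, against at most 0.0668 and 0.403 FPKM in the other GFP libraries, while the first Obox3 library had 30.01 FPKM of Obox5 and the first Obox5 library 99.5 FPKM of Obox3. In the mzKO libraries labelled as given Obox157, Obox3 or Obox4 RNA, the rows of Obox5, Obox3 and Obox4 in this order were at 0. Wild-type blastocysts labelled as injected with Obox3 or Obox5 RNA were also low in these rows, at 0.135 FPKM of Obox3 and 0 FPKM of Obox5. A row at 0 at blastocyst time thus does not by itself go against the label. Defining oocyte genes (Zp3, Gdf9, Bmp15 and Mos) summed to 8029.5 to 8283 FPKM in wild-type MII oocytes and 0.458 to 0.717 FPKM in blastocysts, and pluripotency genes to 486 to 847 FPKM in GFP stem cells. In bulk samples such as these, fewer cells of a type and less RNA per cell cannot be told apart.

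Promoters carrying the elements of the heat shock and endoplasmic reticulum stress responses are shown first, because several results below turn on the genes behind them. RefSeq promoters (GRCm38.p6, while the expression tables were made on mm9) were matched for 71 members. The core of a heat shock element, GAANNTTC, which reads the same on both strands, lay within 250 bases upstream of the start in 13 of 71 members (18.3%) and in 7.73% of all 27025 promoters. The other arrangement, TTCNNGAA, was in 7 members (9.86%) and 8.11% of promoters, and the longer form, GAANNTTC followed by NNGAA, which contains both, was found on either strand in Dnajb6, Hspd1 and Hspe1 (4.23%) against 0.514% of promoters. The 200 bases before the starts of the inducible pair, and the interval between the divergently transcribed mitochondrial chaperonin genes Hspd1 and Hspe1, follow, with the repeats in capitals. They lie at chr17:34972157-34972356, minus strand, at chr17:34959239-34959438, minus strand and at chr1:55087933-55088147, plus strand.
Hspa1a: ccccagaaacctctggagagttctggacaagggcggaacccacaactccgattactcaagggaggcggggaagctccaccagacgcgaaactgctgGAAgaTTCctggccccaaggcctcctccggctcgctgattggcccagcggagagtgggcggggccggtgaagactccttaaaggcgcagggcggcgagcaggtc
Hspa1b: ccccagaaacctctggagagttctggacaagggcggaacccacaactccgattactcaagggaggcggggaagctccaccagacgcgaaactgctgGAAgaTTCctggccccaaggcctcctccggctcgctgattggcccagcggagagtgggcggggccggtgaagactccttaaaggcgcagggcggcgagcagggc
Hspd1-Hspe1: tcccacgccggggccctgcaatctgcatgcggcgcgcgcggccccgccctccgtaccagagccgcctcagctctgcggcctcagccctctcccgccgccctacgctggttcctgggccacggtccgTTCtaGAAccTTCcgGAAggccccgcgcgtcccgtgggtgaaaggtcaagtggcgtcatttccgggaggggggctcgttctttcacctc
The Hspa1a and Hspa1b stretches are identical at 199 of 200 positions (99.5%). The genes themselves are near-identical copies, so how reads were divided between them is uncertain, and their values are best read together.

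The endoplasmic reticulum stress element, CCAAT and CCACG separated by 9 bases of any kind, on either strand, was present in only 3 members, Hspa5, Hsp90b1 and Dnajc3 (4.23%), and in 0.13% of all promoters. These encode BiP, GRP94 and P58IPK, chaperones of the endoplasmic reticulum. Their upstream stretches lie at chr2:34771890-34772089, plus strand, at chr10:86705445-86705644, minus strand and at chr14:118937732-118937931, plus strand, with both ends of the element in capitals and, in Hsp90b1, read on the opposite strand.
Hspa5: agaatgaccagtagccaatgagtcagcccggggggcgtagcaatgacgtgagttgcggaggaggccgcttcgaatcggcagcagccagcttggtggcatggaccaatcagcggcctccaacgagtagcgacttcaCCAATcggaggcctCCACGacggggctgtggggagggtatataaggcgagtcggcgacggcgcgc
Hsp90b1: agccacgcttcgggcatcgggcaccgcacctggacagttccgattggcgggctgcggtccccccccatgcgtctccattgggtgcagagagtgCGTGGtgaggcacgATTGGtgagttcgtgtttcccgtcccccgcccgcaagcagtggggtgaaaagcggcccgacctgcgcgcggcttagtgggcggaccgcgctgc
Dnajc3: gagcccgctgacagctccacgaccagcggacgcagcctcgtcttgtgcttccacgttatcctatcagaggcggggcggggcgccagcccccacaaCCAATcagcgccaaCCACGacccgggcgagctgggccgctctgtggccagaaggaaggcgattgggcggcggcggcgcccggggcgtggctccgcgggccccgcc
TAATCC, the core that paired-like homeodomains such as OBOX are known to bind, was in 2 of 71 members, Cct6a and Dnajb13 (2.82%), against 7.21% of promoters, counting both strands. A match describes letters in these windows only.

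In wild-type samples the members made up, on average, 0.794% in FGO, 0.952% in MII oocytes, 0.459% in early 2-cell, 1.16% in late 2-cell, 1.62% in 4-cell embryos and 2.43% in blastocysts of all FPKM outside Rn45s. The share dipped in early 2-cell embryos and was highest in blastocysts. The mean of 19 members was highest in blastocysts, of 17 in 4-cell, of 17 in late 2-cell, of 4 in early 2-cell embryos, of 16 in MII oocytes and of 2 in FGO, and 12 stayed below 1 FPKM at all 6 stages. limma was run on log2(FPKM + 1) over all genes that reached 1 FPKM in at least 2 libraries of the table, and genes with an adjusted p under 0.05 and a log2 fold change of 1 or more either way are counted as called. 78 members were tested in this table.

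**Figure D1:**
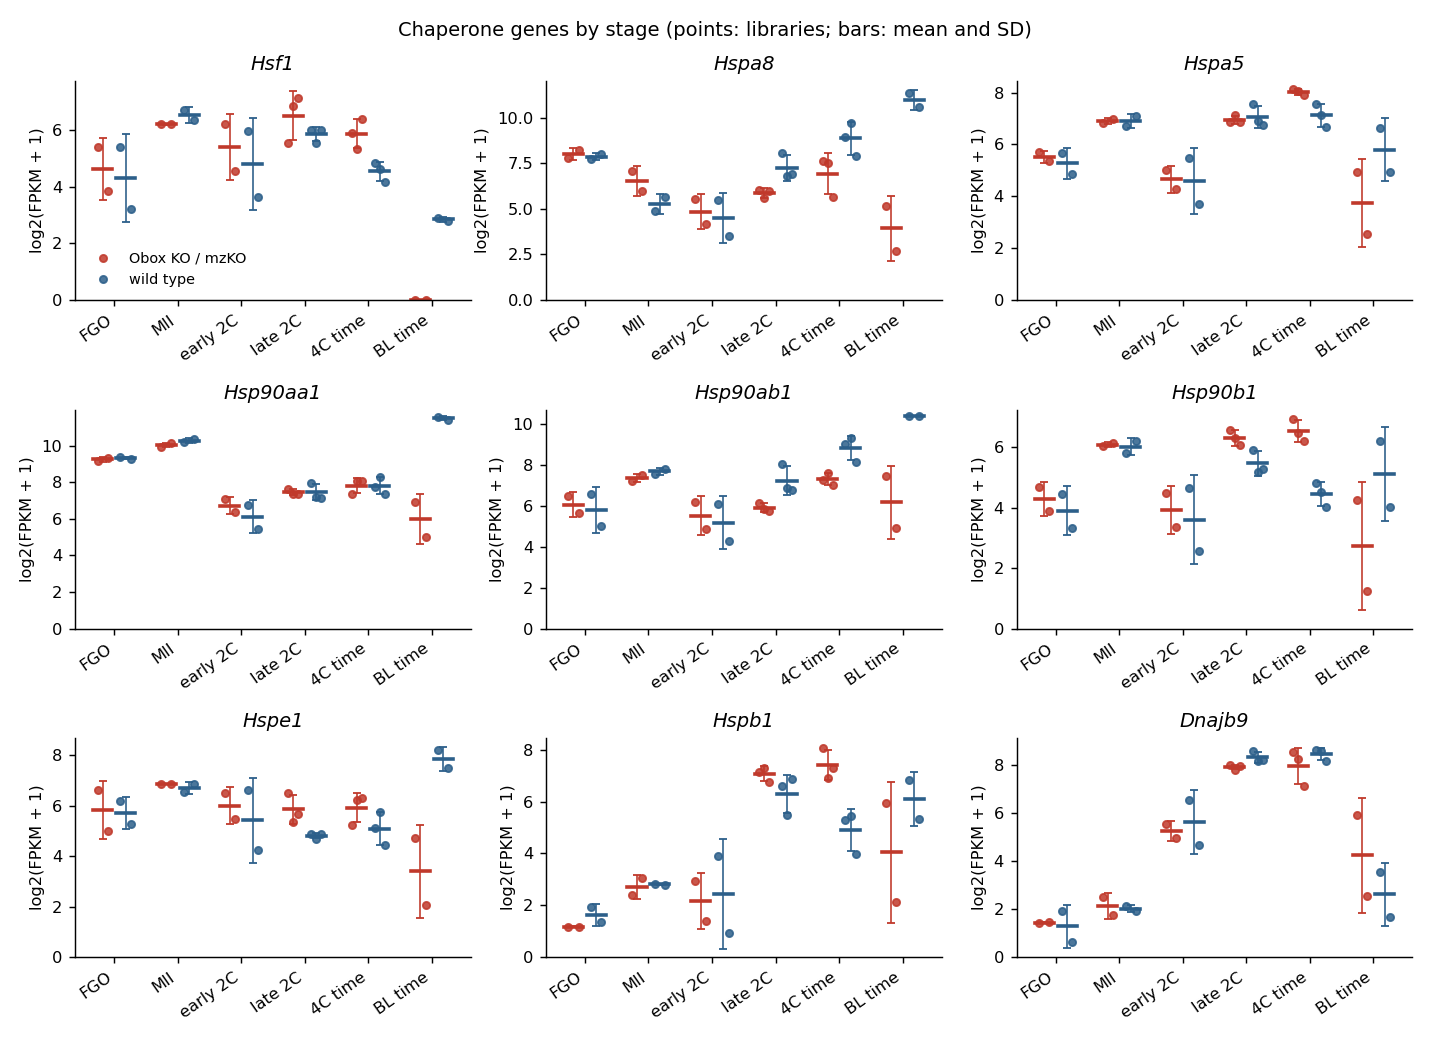
Levels of 9 chaperone genes by stage as log2(FPKM + 1), with points for libraries and bars for mean and SD, Obox KO or mzKO samples in red and wild-type samples in blue. Hspa8 and Hsp90aa1 are highest in wild-type blastocysts, where Hspa8 reached 2652 and 1546 FPKM, and Hsf1 is listed at 0 in both arrested mzKO libraries.

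Meiotic maturation, MII against FGO, brought 13 members up and 3 down (22.9% and 2.24% of all genes tested rose and fell, beside 16.7% and 3.85% of the members). Hsf1 had 105 and 80.5 FPKM in MII oocytes and 41.9 and 8.34 FPKM in FGO, and rose (log2 fold change 2.22, SE 0.74, limma adjusted p = 0.0300). All MII values lay above both FGO values. Others that rose included Hsp90b1 2.12, Dnajc3 1.98, Dnajc1 2.18, Dnajc10 1.83 and Hspa13 1.04 (log2 fold changes), and Hspa13 averaged 2.03 FPKM in MII oocytes. Dnaja4, Dnajc13, Hspa14, Hspa4l and Hspd1 rose as well, while Hspa5, Dnajb9 and Dnajb11 were not called (Hspa5 1.64, Dnajb9 0.74 and Dnajb11 0.74). Hspa8, the constitutive cytosolic HSP70, was 28.2 and 48.8 FPKM in MII oocytes against 211 and 254 FPKM in FGO and fell (log2 fold change -2.61, SE 0.81, limma adjusted p = 0.0208), as did Cct5 and Dnajc11 (-2.37 and -2.41). The split depended on the scale of the libraries. With Rn45s left out and each library rescaled to the same total, 5 members rose and 2 fell (5.6% and 1.33% of all genes). With median-of-ratios scaling 1 rose and 14 fell (1.39% and 9.33%). These scalings moved the median of all genes from 0.50 (log2) to 0.29 and 0.00. Hsf1 was called under neither of them. The calls also rest on single libraries: 0 were made without the second FGO library, 1 without the first and 2 without the second MII library, and 14 without the first FGO library.

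From MII oocytes to early 2-cell embryos 17 members fell and 2 rose in FPKM, 21.8% and 2.56% of the members against 19.5% and 2.09% of all genes. All 3 HSP90 genes fell, led by Hsp90aa1, the stress-responsive cytosolic isoform, with 106 and 43.2 FPKM in early 2-cell embryos and 1169 and 1322 FPKM in MII oocytes (log2 fold change -4.18, SE 0.59, limma adjusted p = 7.89e-06). The early 2-cell values lay far below the MII values, and the second early 2-cell library, with 5539 genes at 1 FPKM, was the lower one. Others that fell included Dnajc3 -3.90, Dnajb11 -3.18, Dnajc10 -3.07, Hsp90b1 -2.41 and Hspa5 -2.33, with Dnaja1, Dnajc1, Dnajc9 and Hsph1. The genes that rose were Dnajb9, an endoplasmic reticulum J protein (3.60), and Dnajb14, a J protein of the endoplasmic reticulum membrane (2.60). With the ribosomal precursor left out, 3 rose and 9 fell (2.78% and 4.82% of all genes). With median-of-ratios scaling 7 rose and 6 fell (6.18% and 7.04%). The median of the members was -0.76 (log2) in FPKM, -0.15 with the precursor left out and 0.08 with median-of-ratios scaling, and that of all genes -0.44, 0.00 and 0.03. The count was 37 without the first early 2-cell library, 10 without the second, and 10 and 7 without the first or second MII library.

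In FPKM and with Rn45s left out, more members were called between the early and late 2-cell stage, when the embryo's own genome is activated, than at any other step of the wild-type course; with median-of-ratios scaling 20 were called here and 24 between the 4-cell stage and the blastocyst. 41 members rose, 52.6% of those tested, and 1 fell, against 34.2% and 3.16% of all genes. All 10 genes of the cytosolic chaperonin group rose, as they did with Rn45s left out, while with median-of-ratios scaling 4 of them were called. Tcp1, its first subunit, had 238, 115 and 126 FPKM in late and 17.0 and 4.58 FPKM in early 2-cell embryos (log2 fold change 3.93, SE 0.63, limma adjusted p = 1.79e-05). The others gave log2 fold changes of Cct4 3.37, Cct6a 3.28, Cct3 2.95, Cct5 2.67, Cct2 2.25, Cct7 2.03, Cct8 1.86, Cct6b 1.80 and Cct8l1 1.46. All 3 HSP90 genes rose, Hsp90ab1 2.05, Hsp90b1 1.86 and Hsp90aa1 1.34, as did the HSP70 genes Hspa8 2.76, Hspa5 2.49 and Hspa14 1.83 and the HSP110 genes Hspa4 3.27 and Hsph1 2.88. Hspb1, the small heat shock protein HSP27, had 95.2, 43.6 and 116 FPKM in late and 14.1 and 0.892 FPKM in early 2-cell embryos (log2 fold change 3.89, SE 0.84, limma adjusted p = 5.40e-04). Dnajb4, a cytosolic J protein, was the only gene that fell, at 5.95, 7.34 and 6.28 FPKM in late and 157 and 34.6 FPKM in early embryos (-3.32). The inducible pair stayed low, Hspa1a at 1.26, 1.09 and 1.98 FPKM in late and 0.818 and 0.247 FPKM in early 2-cell embryos, without a call.

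The median of the members shifted by 1.35 at this step and that of all genes by 0.72 (log2). Rescaling without Rn45s left 34 that rose and 2 that fell; median-of-ratios scaling, which moved the median of all genes to 0.05, left 14 and 6, with no HSP90 gene called, and under it Hsp90aa1 and Hspd1 changed direction to -0.07 and -0.16. Of all genes 23.1% rose and 3.3% fell without Rn45s, and 15.4% and 12.7% with median-of-ratios scaling. Without single libraries the count of member calls lay between 17 and 53. The lowest came without the second early 2-cell library, which has the fewer genes detected.

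At the 4-cell stage 1 member rose and 5 fell relative to the late 2-cell stage (1.77% and 11.3% of all genes). Those that fell were Dnajb4 -1.98, Hspa2 -1.78, Hspb6 -1.61, Hspa4l -1.37 and Dnajc4 -1.30, and Dnaja1 rose (1.54) with libraries that overlapped. Under median-of-ratios scaling 11 rose and none fell (4.75% and 4.33% of all genes). The median of all genes was then 0.00 (log2) in place of -0.27. Each 4-cell library and late 2-cell libraries 2 and 3, left out in turn, reduced the 6 calls to between 1 and 3. Blastocysts had 7 members higher and 10 lower than 4-cell embryos (10.5% and 17.7%). Hsp90aa1 had 3091 and 2740.5 FPKM in blastocysts and 217, 309.9 and 162 FPKM in 4-cell embryos (log2 fold change 3.71, SE 0.54, limma adjusted p = 4.67e-06). The mitochondrial chaperonin rose as a pair, Hspe1 by 2.75 and Hspd1 by 1.63, beside Hspa8 (2.13). Dnajb9 had 10.7 and 2.19 FPKM in blastocysts and 396, 381 and 287 FPKM in 4-cell embryos and fell (log2 fold change -5.85, SE 0.72, limma adjusted p = 3.80e-07), the largest fall among the members at this step. Dnajb14 fell as well (-3.51). Rescaling without Rn45s gave 5 that rose and 21 that fell (5.87% and 19.6% of all genes). Median-of-ratios scaling gave 16 and 8 (17% and 12.8%). The median of all genes was -0.21 (log2) in FPKM, then -0.43 and -0.02 under these scalings in turn. Without the second blastocyst library 9 calls were made.

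**Figure D2:**
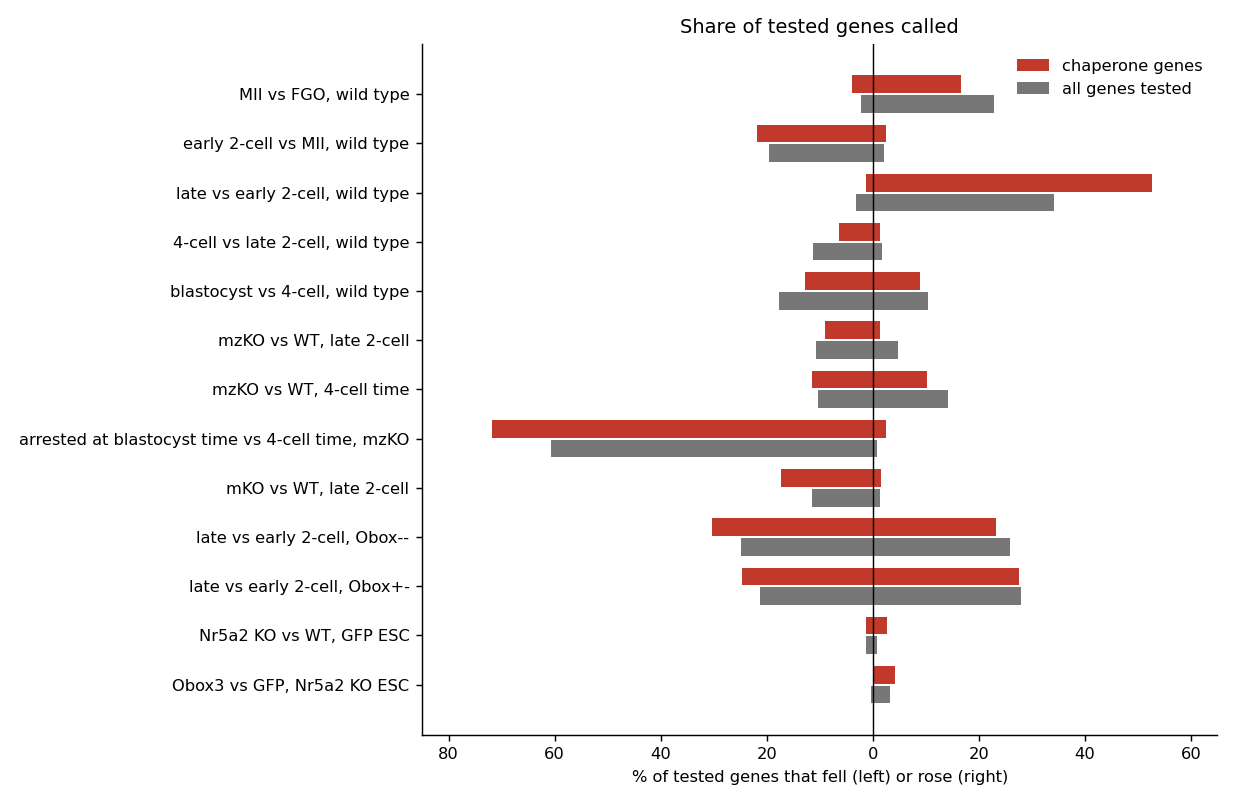
Share of tested genes that rose (right) or fell (left) in 13 comparisons, in percent, with chaperone genes in red and all genes tested in grey. In late against early wild-type 2-cell embryos the red bar reaches 52.6% and the grey one 34.2%, and in mzKO against wild-type late 2-cell embryos the falling bars reach 8.97% and 10.7%.

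Loss of Obox in the oocyte left the members without a call. In Obox KO against wild-type FGO, in Obox KO against wild-type MII oocytes and in Obox mzKO against wild-type early 2-cell embryos, limma called 0 members, and 0, 1 and 1 members had an unadjusted p under 0.05, of 53, 159 and 331 genes in all. The share of all genes called was 0.0715%, 0.0572% and 0.4%. Hsf1 had 74.1 and 72.8 FPKM in Obox KO and 105 and 80.5 FPKM in wild-type MII oocytes, and Hsp90aa1 had 983 and 1122 FPKM in Obox KO and 1169 and 1322 FPKM in wild-type MII oocytes. With a pseudocount of 0.1 1 member was called at the early 2-cell stage, and under the other settings run no member was called in these 3 comparisons.

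In late 2-cell embryos 7 members fell and 1 rose in Obox mzKO relative to wild type. The shares among all genes were 10.7% and 4.74%, beside 8.97% and 1.28% of the members. No HSP70 or HSP90 gene was among those that fell in FPKM. Dnajc4, a J-domain protein, had 4.90, 1.85 and 3.51 FPKM in mzKO and 24.0, 25.5 and 26.0 FPKM in wild-type embryos (log2 fold change -2.63, SE 0.44, limma adjusted p = 8.84e-05). Every mzKO library lay below every wild-type library, and the call held without any single library. Hspbp1 had 2.41, 8.68 and 1.69 FPKM in mzKO and 32.6, 19.1 and 16.5 FPKM in wild-type embryos (log2 fold change -2.35, SE 0.55, limma adjusted p = 0.00314), and its call also held without any single library. Dnajb14 had 7.79, 4.18 and 2.68 FPKM in mzKO and 35.5, 35.8 and 38.1 FPKM in wild-type embryos (log2 fold change -2.76, SE 0.77, limma adjusted p = 0.0139).

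The groups did not overlap for any of these 3 genes, which was a condition for naming them. The wild-type Dnajb14 values were close together, and its call was lost without the third mzKO library (adjusted p = 0.0708 with limma). Cct4, a subunit of the cytosolic chaperonin, had 21.3, 15.2 and 10.1 FPKM in mzKO and 102, 39.9 and 42.1 FPKM in wild-type embryos (log2 fold change -1.84, SE 0.56, limma adjusted p = 0.0219). The remaining genes that fell were Dnajc17 -1.73, Cct8l1 -1.70 and Hspbap1 -1.67; Dnajc17 is known to associate with the splicing machinery. Hsf2, the heat shock factor known for roles in development, rose, with 20.1, 4.91 and 6.23 FPKM in mzKO and 2.50, 2.71 and 3.36 FPKM in wild-type embryos (log2 fold change 1.33, SE 0.45, limma adjusted p = 0.0415), and leaving out any wild-type library or the first mzKO library ended that call. Without the first wild-type library 4 calls were made and without the third mzKO library 5. The first wild-type library also carried the calls of Cct4, Dnajc17 and Hspbap1, the third mzKO library those of Cct4 and Dnajc17, the second mzKO library that of Cct4 and the first mzKO library that of Hspbap1. Rescaling without Rn45s left 0 up and 6 down (3.6% and 6.53% of all genes). Median-of-ratios scaling gave 1 up and 8 down (3.99% and 8.33%).

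In FPKM the 6 most abundant members of wild-type late 2-cell embryos, Dnajb9, Hsp90aa1, Hspa8, Hsp90ab1, Tcp1 and Dnajb6, had no call at this stage. Hsp90ab1, the constitutive cytosolic HSP90, had 69.8, 55.6 and 52.9 FPKM in mzKO and 265, 116 and 106 FPKM in wild-type embryos, without overlap (log2 fold change -1.32, SE 0.60, limma adjusted p = 0.129). It was called lower with Rn45s left out (-1.24), with median-of-ratios scaling (-1.23) and with the replicate block (-1.32). Hsp90aa1 had 198, 165 and 162 FPKM in mzKO and 247, 148 and 142 FPKM in wild-type late 2-cell embryos, and Hspa5 had 117, 138 and 114 FPKM in mzKO and 187, 119 and 107 FPKM in wild-type embryos. Their groups overlapped. Hspa8 had 65.5, 46.4 and 61.6 FPKM in mzKO and 270.1, 109.5 and 117 FPKM in wild-type embryos, values that did not overlap but missed the threshold (log2 fold change -1.39, limma adjusted p = 0.147). The inducible Hspa1a was at 1.99, 2.01 and 1.36 FPKM in mzKO and 1.26, 1.09 and 1.98 FPKM in wild-type embryos. The 4 oocyte markers summed to 319 to 812 FPKM in mzKO and 216 to 300.2 FPKM in wild-type embryos, the 6 markers of 2-cell embryos to 213 to 342 FPKM in mzKO and 71.4 to 189 FPKM in wild type, with none at 0 in either, and the 3 trophectoderm markers to 5.58 to 12.4 FPKM in mzKO and 0.0829 to 0.642 FPKM in wild type; their part in these differences was not tested.

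Within the mzKO embryos, 18 members rose and 1 fell between the early and late 2-cell stage, beside 18% and 1.82% of all genes. Of the 10 genes of the cytosolic chaperonin group 5 rose, Cct6a 3.13, Tcp1 2.55, Cct8 1.91, Cct4 1.87 and Cct6b 1.16. Without the second mzKO early 2-cell library 6 calls were made. With median-of-ratios scaling 9 rose and 3 fell (7.09% and 6.9% of all genes). Hspb1 rose by 4.92, Hspa5 by 2.29 and Hsp90b1 by 2.38 on the log2 scale. The difference between the mzKO and the wild-type step was tested in the same model: 2 members differed, Dnajc4 (difference -2.63, SE 0.69, limma adjusted p = 0.0410) and Cct8l1 (difference -1.46, SE 0.35, limma adjusted p = 0.0220), both with a smaller step in mzKO. Among all genes 0.465% had a larger and 1.42% a smaller step. Both calls were lost under rescaling without Rn45s, median-of-ratios scaling and a pseudocount of 0.1, and counts of 0 to 3 came from leaving out single libraries; neither was called without the second wild-type early 2-cell library or without either mzKO early 2-cell library, and the call of Dnajc4 was lost in 8 of the 10 cases.

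**Figure D3:**
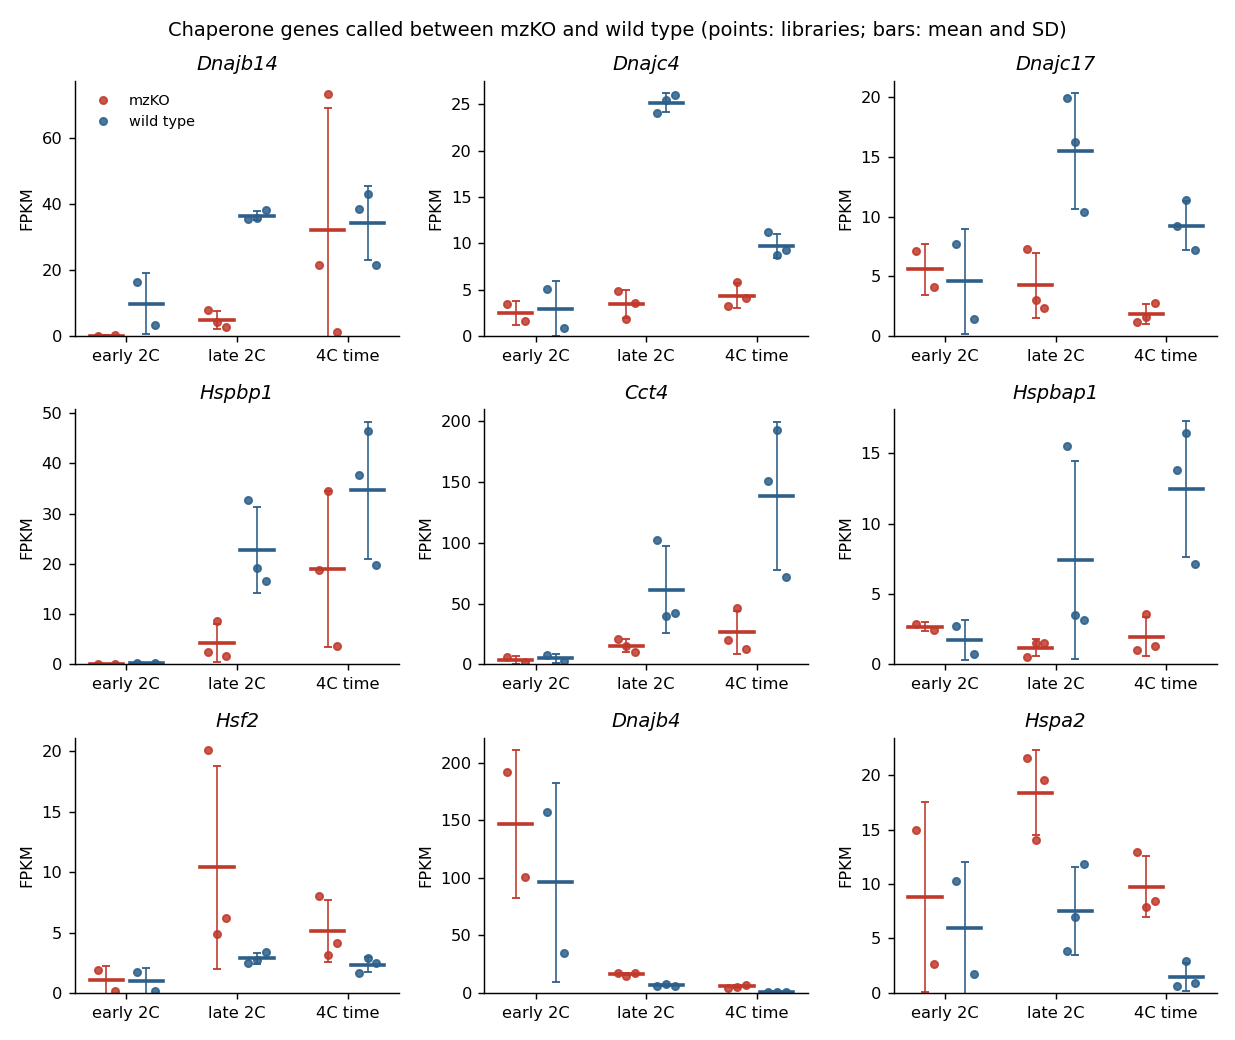
FPKM of 9 chaperone genes in Obox mzKO (red) and wild-type (blue) embryos at 3 stages, with points for libraries and bars for mean and SD. Dnajc4 stays at or below 5.85 FPKM in all mzKO libraries, while the 3 wild-type late 2-cell libraries hold 24.0, 25.5 and 26.0 FPKM.

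When wild-type embryos had reached the 4-cell stage, 8 members rose and 9 fell in Obox mzKO embryos, against 14.2% and 10.4% of all genes; the members' own shares were 10.3% and 11.5%. The groups did not overlap for any of the 17. Genes called at this threshold with 3 libraries a group are likely not to overlap, and the share among all called genes was not counted. Hspb1 had 268, 120.3 and 154 FPKM in mzKO and 38.1, 42.0 and 14.7 FPKM in wild-type embryos (log2 fold change 2.53, SE 0.75, limma adjusted p = 0.0143). Hsp90b1, the HSP90 of the endoplasmic reticulum whose stress element is shown above, had 121, 87.2 and 73.4 FPKM in mzKO and 26.9, 21.8 and 15.2 FPKM in wild-type embryos (log2 fold change 2.10, SE 0.64, limma adjusted p = 0.0167). All mzKO libraries were higher than all wild-type libraries in both genes; leaving out the third wild-type or the first mzKO library ended both calls, with adjusted p-values up to 0.0677 with limma.

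The other carriers of that element did not both follow. Hspa5 had 278, 265 and 239 FPKM in mzKO and 188, 140.1 and 102 FPKM in wild-type 4-cell embryos, groups that did not overlap but differed by 0.90 on the log2 scale, short of the fold required, and rose by 1.30 after rescaling without Rn45s. Dnajc3 had 19.8, 19.8 and 21.7 FPKM in mzKO and 17.8, 18.5 and 13.3 FPKM in wild type, without a call. Hspa2, an HSP70 abundant in the male germ line, had 12.9, 7.89 and 8.41 FPKM in mzKO and 0.635, 2.94 and 0.881 FPKM in wild-type embryos (log2 fold change 2.20, SE 0.57, limma adjusted p = 0.00546). Hspa2, Dnajb4, Hspa4l and Hspb6 had fallen in wild-type embryos between the late 2-cell and 4-cell stage; in mzKO embryos the same step gave Hspa2 -0.86, Dnajb4 -1.42, Hspa4l -0.73 and Hspb6 -1.22, none called. However, the test of the difference between the steps called 0 members (8 members and 1649 of all genes had an unadjusted p under 0.05; median-of-ratios scaling called 1; 1.17% of all genes called). The remaining genes that rose were Dnajc12 2.00 and Dnaja4 1.68; the calls of Dnaja4 and Hspa4l were lost without the third mzKO library and that of Dnajc12 without the first wild-type library.

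Among the 9 that fell at the 4-cell time, Dnajc19, a subunit of the mitochondrial import motor, had 0.928, 3.29 and 2.51 FPKM in mzKO and 11.2, 27.3 and 7.05 FPKM in wild-type embryos (log2 fold change -2.19, SE 0.54, limma adjusted p = 0.00389). Dnajc15, its close relative, fell by 1.98 on the log2 scale. Cct4 had 20.0, 46.5 and 12.4 FPKM in mzKO and 151, 192 and 72.2 FPKM in wild-type embryos (log2 fold change -2.44, SE 0.56, limma adjusted p = 0.00211), and Cct7 fell as well (-1.48). No other chaperonin subunit was called: Tcp1 had 87.2, 142 and 64.4 FPKM in mzKO and 194, 214 and 128 FPKM in wild type. Hspa8 had 197, 181 and 49.4 FPKM in mzKO and 490.3, 847 and 239 FPKM in wild-type embryos (log2 fold change -1.93, SE 0.66, limma adjusted p = 0.0302), a call lost without the first or second wild-type or the third mzKO library. The same libraries carried the call of Dnajc15, and these with the first mzKO library that of Cct7. The rest were Hspbap1 and Dnajc17, which had fallen at the late 2-cell stage too, with Dnajc24, known for its part in diphthamide synthesis, and Dnajb6, an inhibitor of protein aggregation (Hspbap1 -2.20, Dnajc17 -1.87, Dnajc24 -1.92 and Dnajb6 -1.39).

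Cct4, Dnajc17 and Hspbap1 were thus the 3 members called lower in mzKO embryos at both stages, and they kept the call at both stages with Rn45s left out and with median-of-ratios scaling. Their late 2-cell calls were lost without the first wild-type late 2-cell library. Of all genes 10.7% fell at the late 2-cell stage and 10.4% at the 4-cell time, and the share called lower at both was not counted. Leaving out the ribosomal precursor gave 15 that rose and 8 that fell at the 4-cell time, with Hsf1 and Hspe1 among those that rose, and median-of-ratios scaling gave 7 and 18. Of all genes 18.8% rose and 4.83% fell without the precursor, and 9.24% and 14.3% with median-of-ratios scaling. The median of all genes was 0.16 (log2), 0.50 and 0.03 under the 3 scales. Without the third mzKO library 11 calls were made. Oocyte markers summed to 90.0 to 170.4 FPKM in mzKO and 51.4 to 69.4 FPKM in wild-type embryos, with none of the 4 at 0. The 6 markers of 2-cell embryos summed to 472, 533 and 61.7 FPKM in mzKO and 118, 70.4 and 36.6 FPKM in wild-type embryos, and the 3 trophectoderm markers to 6.47, 7.63 and 33.7 FPKM in mzKO and 0.830, 0.666 and 0.615 FPKM in wild type, where Cdx2 was at 0. The third mzKO library stood apart from the other two in both sums. The part of these markers in the result was not tested. In mzKO embryos from the late 2-cell stage to the 4-cell time 1 member, Dnajc19, fell (-1.89) and none rose, beside 4.44% and 1.68% of all genes. Either of the other scalings gave 2 up and 1 down. Of all genes 1.91% rose and 1.67% fell without Rn45s, and 1.47% and 2.98% with median-of-ratios scaling.

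At blastocyst time the mzKO embryos were still at the 2-cell stage. Their members read lower almost throughout in FPKM: 56 fell and 2 rose relative to mzKO embryos at the 4-cell time, beside 60.7% and 0.801% of all genes. The 2 that rose were the inducible pair. Hspa1a had 102 and 11.6 FPKM in arrested embryos and 2.40, 3.04 and 2.89 FPKM at the 4-cell time (log2 fold change 3.25, SE 0.53, limma adjusted p = 7.62e-06), and Hspa1b had 19.7 and 5.65 FPKM in arrested embryos and 1.04, 1.86 and 1.99 FPKM at the 4-cell time (log2 fold change 2.18, SE 0.36, limma adjusted p = 1.19e-05). Both arrested libraries exceeded every other library of that table in both genes: outside the arrested group Hspa1a reached at most 3.07 FPKM, and wild-type blastocysts had 0.104 and 0.0467 FPKM. Without the first arrested library, the one with Obox3 reads, 1 arrested library is left, which is assumed to vary like the other groups; Hspa1a then rose by 1.74 (limma adjusted p = 0.00244) and Hspa1b by 1.36, with 2 members up and 55 down. Without the second library 2 rose and 41 fell, and the FPKM calls of Hsp90aa1, Hspe1 and Hsph1 were lost. That of Hsph1 was also lost without the first or the second mzKO library of 4-cell time.

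Because Rn45s filled most of these libraries, the same values were also read after it was left out and each library rescaled to a sum of 1e+06. Then 13 members rose and 37 fell, beside 11.2% and 37% of all genes. With median-of-ratios scaling 11 rose and 25 fell, beside 13.5% and 29.8%. The median of all genes was -1.52 (log2) in FPKM, -0.93 after rescaling and -0.43 with median-of-ratios scaling, so a change is best read against these shifts. Hspa1a reached 3058 and 1073 on this scale in arrested embryos against 13.0, 14.0 and 17.3 at the 4-cell time, and its log2 fold change was 6.85 after rescaling and 6.43 with median-of-ratios scaling. Without the first arrested library the rescaled change was 6.10, with 12 members up and 38 down. Hsp90aa1 changed direction: it fell by 1.83 in FPKM and was 3679 and 2942 on the rescaled scale in arrested embryos against 876, 1212 and 1580.2 at the 4-cell time (1.47).

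Called higher on the rescaled values as well were Hsp90ab1 (2.17) and the HSP110 gene Hsph1 (1.34). So were Dnajb1, the J protein of the heat shock response (2.62), and Hspa1l, the neighbour and relative of the inducible pair (4.14). Not all that rose are named. By family the 13 were 4 HSP70, 3 DNAJC, 2 DNAJB, 2 HSP90, 1 HSP110 and 1 cytosolic chaperonin gene. In the same families 5 HSP70, 14 DNAJC, 7 DNAJB, 0 HSP90, 1 HSP110 and 4 chaperonin genes fell. In FPKM, Hsph1 fell by 1.68. Hsp90ab1, Dnajb1 and Hspa1l had no FPKM call (Hsp90ab1 -1.12, Dnajb1 -0.52 and Hspa1l 0.55). Of these, Hsp90aa1, Hsp90ab1 and Hspa1l kept the rescaled call without the first arrested library, and Dnajb1 and Hsph1 did not. Hsf1, the factor that drives these genes under heat shock, was listed at 0 in both arrested libraries and had 317, 183 and 495 on the rescaled scale at the 4-cell time. Hspd1 and Hspe1, whose shared interval holds the longest heat shock repeat shown above, did not follow the inducible pair: Hspe1 fell by 2.53 in FPKM, and its rescaled change of 0.59 was not called. Tcp1 was lower on both scales, -4.96 in FPKM and -2.54 rescaled. Of 7 fibroblast markers 5 were at 0 in the arrested group and the sum was 1.77 to 31.7 FPKM there, against 1.00 to 3.54 FPKM at the 4-cell time; its part in the result was not tested.

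**Figure D4:**
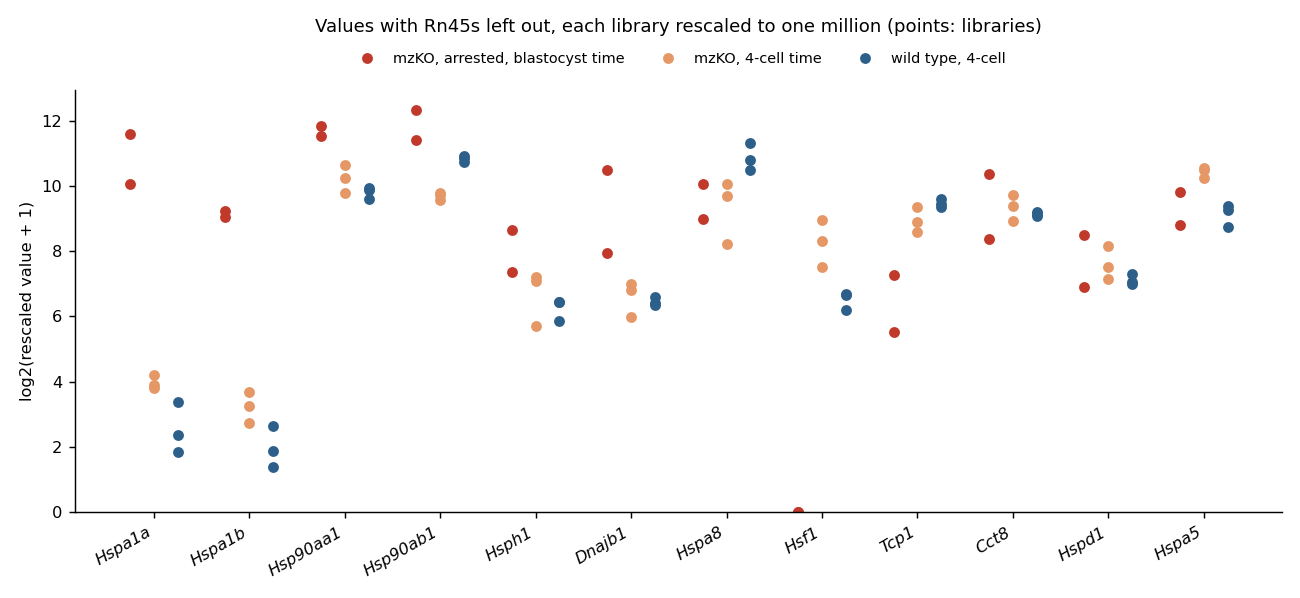
log2(rescaled value + 1) of 12 chaperone genes, with Rn45s left out and each library rescaled to 1e+06, in arrested mzKO embryos at blastocyst time, mzKO embryos at the 4-cell time and wild-type 4-cell embryos. Points are libraries. Hspa1a and Hspa1b of both arrested libraries lie far above every other point of these genes, and Hsf1 is listed at 0.

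Single libraries of mzKO embryos that had received Obox RNA were described without a test. Those labelled Obox157OE and Obox3OE were labelled blastocysts, and the one labelled Obox4OE an arrested 2-cell embryo. As given above, the rows of Obox5, Obox3 and Obox4 were at 0 in them. The 3 HSP90 genes summed to 5409.7, 3877 and 379 FPKM in this order, against 4080.3 to 4492 FPKM in wild-type blastocysts. The cytosolic chaperonin genes summed to 1604, 797 and 104 FPKM, against 854 to 1483 FPKM. Hspa1a was 0, 0.106 and 2.26 FPKM. The libraries labelled Obox157OE and Obox3OE were near the wild-type blastocysts in these values, and the one labelled Obox4OE was far below them in both sums.

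With only the maternal Obox genes missing, late 2-cell embryos showed 12 members lower and 1 higher than wild type (11.4% and 1.44% of all genes, beside 17.4% and 1.45% of the members). Dnajc2 and Hspa14, known as the ribosome-associated chaperone pair, fell together. Dnajc2 had 4.51 and 2.76 FPKM in mKO and 24.5 and 32.6 FPKM in wild-type embryos (log2 fold change -2.68, SE 0.38, limma adjusted p = 0.0200), and Hspa14 had 16.5 and 31.2 FPKM in mKO and 105 and 109 FPKM in wild type (log2 fold change -2.19, SE 0.39, limma adjusted p = 0.0245). Chaperonin subunits fell in Tcp1, Cct4, Cct6a and Cct7, Tcp1 -1.87, Cct4 -1.67, Cct6a -1.63 and Cct7 -1.59. The others were Dnajc19 -2.45, Dnajc17 -1.93, Dnajc3 -1.71, Dnajb11 -1.56, Hspbp1 -1.53 and Hsp90ab1 -1.49, and Dnajc22 rose (1.68).

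These maternal knockout calls rest on the scale of the libraries. The FPKM sums were 184488 and 179978 in mKO and 293375 and 291113 in wild type, and the median of all genes was -0.48 (log2), 0.16 with Rn45s left out and -0.05 with median-of-ratios scaling. No member was called with Rn45s left out, with median-of-ratios scaling or without the filter on low values. The fit had 2 residual degrees of freedom, and leaving out single libraries gave 0 to 29 calls, with 0 without the second wild-type library, 1 without the first, 29 without the first mKO library and 21 without the second. The oocyte markers summed to 93.6 to 112 FPKM in mKO and 184 to 262 FPKM in wild type. The 2-cell markers moved the other way, at 245 and 947 FPKM in mKO and 168 and 79.8 FPKM in wild type, and Rn45s took 3.00 and 2.20% in mKO and 0.746 and 0.320% in wild type. Their part was not tested. Cct4, Dnajc17 and Hspbp1 carried a call in the same direction in mzKO late 2-cell embryos, which come from other libraries. Of all genes 11.4% fell in mKO and 10.7% in mzKO late 2-cell embryos, and the share called lower in both was not counted. A single blastocyst library per genotype gave Hspa4l as the 1 member of 64 past a 2-fold difference, at 1.20 FPKM in mKO and 3.56 FPKM in wild type, where 3.8% of all genes were higher and 2.07% lower by that measure.

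Embryos without zygotic Obox alleles were compared with heterozygotes. In Obox-- embryos Obox3 was at 0 FPKM in all 7 libraries, while Obox5 was still at 497, 272 and 273 FPKM in early 2-cell embryos. limma called 0 members at the early and 0 at the late 2-cell stage; 15 and 4 members had an unadjusted p under 0.05, of 1451 and 1561 genes in all, and the shares of all genes called were 0.461% and 0.632%. At the early stage 1 member was called with median-of-ratios scaling, 1 with a replicate block and 1 without the second Obox+- library. Dnajb14 had 3.49, 2.00 and 4.26 FPKM in Obox-- and 15.1, 5.75 and 15.5 FPKM in Obox+- early 2-cell embryos, groups that did not overlap but missed the threshold (log2 fold change -1.56, limma adjusted p = 0.0834). The late libraries overlapped, at 4.27, 7.39, 7.70 and 9.04 FPKM in Obox-- and 4.16, 7.77 and 5.43 FPKM in Obox+- embryos.

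Each library of this table is 1 embryo, going by the table's name. Rn45s took 20.1 to 24.4% of the late and 3.24 to 7.44% of the early 2-cell libraries, and its part in the step was not tested. In Obox-- embryos 16 rose and 21 fell (25.8% and 24.8% of all genes), and in Obox+- embryos 19 rose and 17 fell (28% and 21.3%). On rescaled values without the precursor, Obox-- embryos had 20 that rose and 17 that fell, and Obox+- embryos 23 and 18. The shares of all genes were 27.9% and 19% in Obox-- and 27.8% and 17.7% in Obox+- embryos. The mitochondrial chaperonin fell under every scaling: Hspe1 had 0.0193, 0, 0 and 0.339 FPKM in late and 65.4, 39.8 and 48.1 FPKM in early Obox-- embryos (log2 fold change -5.56, SE 0.27, limma adjusted p = 2.37e-11), and in Obox+- embryos its change was -4.75. Hspd1 and the mitochondrial HSP70 Hspa9 moved the same way, Hspd1 -2.63 and Hspa9 -2.62 in Obox-- and Hspd1 -1.71 and Hspa9 -2.16 in Obox+- embryos. Hspa14 and the inducible Hspa1a also fell in both genotypes in FPKM, and Hspa1b and Cct8 fell in Obox-- embryos. With Rn45s left out, no gene of the cytosolic chaperonin group fell in either genotype. In this table Tcp1 and Hspbp1 rose, Tcp1 3.61 and Hspbp1 5.71 in Obox-- and Tcp1 3.72 and Hspbp1 5.23 in Obox+- embryos, as did all 3 HSP90 genes in both genotypes, Hsp90b1 2.04, Hsp90ab1 1.96 and Hsp90aa1 1.50 in Obox-- and Hsp90ab1 2.24, Hsp90aa1 2.20 and Hsp90b1 1.96 in Obox+- embryos. The difference between the 2 steps was called for 0 members (13 members and 1096 of all genes at an unadjusted p under 0.05; 0.0939% of all genes called). Hspe1 moved differently in the wild-type samples of the first table, where late 2-cell libraries had 28.1, 24.7 and 28.0 FPKM and early ones 95.9 and 17.8 FPKM, without a call (with median-of-ratios scaling Hspe1 fell there too); the tables were made separately and this difference was not tested. Hspd1, Hspa14 and Cct8 had risen between these stages in those wild-type samples in FPKM, a difference that was not tested either.

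Knockdown of Obox genes left the members without a call. In late 2-cell parthenotes with siObox12mix, siObox5 or siObox7, in early 2-cell embryos with siObox4 and in 4-cell embryos with siObox6 or siObox8, limma called 0 of 76 members; 0, 0, 1, 0, 3 and 0 members in this order had an unadjusted p under 0.05, of 245, 255, 117, 130, 546 and 207 genes in all, and 0.0233%, 0.0233%, 0.00776%, 0.00776%, 0.0699% and 0% of all genes were called. With Rn45s left out 1 member was called with siObox4. The targeted Obox5 had 9.30 and 2.31 FPKM with siObox5 and 818, 367 and 618 FPKM with siCtrl. Hspa8 had 43.4 and 133 FPKM in siObox5 and 56.6, 48.2 and 74.5 FPKM in siCtrl parthenotes, with overlapping groups. In single libraries of siObox3 late 2-cell embryos, 1 of 69 members, the HSP110 gene Hspa4, passed a 2-fold difference, at 3.66 FPKM with siObox3 and 9.14 FPKM with siCtrl, where 1.96% of all genes were higher and 7.59% lower by that measure.

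In wild-type embryos injected with Obox RNA or water there was 1 library per group and so no test. At the late 2-cell stage 2 members were higher and 7 lower than water by 2-fold on the log2(FPKM + 1) scale with Obox1 (of 60; 2.41% and 14.3% of all genes), 0 and 1 with Obox2 (of 59; 0.947% and 2.81%), 1 and 4 with Obox3 (of 63; 2.99% and 3.11%), and 0 and 2 with Obox5 (of 60; 3.38% and 2.24%). Hspb1 had 143 FPKM with Obox1, 62.6 with Obox2, 72.9 with Obox3 and 37.7 with Obox5, against 187 FPKM with water. At the blastocyst stage Obox1 stood apart, with 5 members higher and 31 lower (of 64; 6.59% and 42.5% of all genes), while 3 were higher and 0 lower with Obox2 (of 62; 3.61% and 1.65%), 1 and 0 with Obox3 (of 62; 1.45% and 4.8%), and 0 and 1 with Obox5 (of 61; 2.75% and 1.92%). The Obox1 library kept Dnajb9 at 216 FPKM against 19.6 FPKM with water, and Hspe1 at 106 FPKM against 343 FPKM. Its 6 markers of 2-cell embryos summed to 665 FPKM against 0.240 FPKM with water, and its 3 trophectoderm markers to 366 FPKM against 3076 FPKM; their part in these values was not tested.

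In embryonic stem cells the members took 2.87% of the library of GFP cells, and no member was called with either construct in the fit without a block. Neither Obox3 nor Obox5 against GFP gave a called member in limma (7 and 7 members, and 1332 and 1147 of all genes, at an unadjusted p under 0.05; 3.02% and 2.18% of all genes were called). Same-numbered libraries deviated together here, and with the replicate number as a block 2 members were called with Obox3 and 1 with Obox5. Leaving out Obox3 library 1 or 4 gave 1 and 2 calls, and Obox5 library 1 or 2 gave 1 each. Dnajb14 had 5.78, 16.9, 7.43 and 2.48 FPKM with Obox3 and 0.864 to 3.13 FPKM with GFP (5 libraries), and rose under the block (1.16, limma adjusted p = 0.0127). 1 Obox3 library lay within the GFP range. Hspb8, a small heat shock protein of chaperone-assisted autophagy, had 9.49, 25.9, 18.7 and 18.7 FPKM with Obox3 and 37.2, 44.3, 40.6, 44.5 and 29.1 FPKM with GFP, without overlap, and fell under the block (-1.22, limma adjusted p = 0.00112). Dnajb6 had 77.5, 129, 283 and 275 FPKM with Obox5 and 39.6, 88.1, 104, 65.3 and 26.7 FPKM with GFP, with overlap, and rose under the block (1.25, limma adjusted p = 0.00903). Without the first GFP library, which held Obox3 and Obox5 reads, 0 members were called in either comparison.

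Nr5a2, an orphan nuclear receptor, was at most 2e-06 FPKM in the 6 libraries of Nr5a2 KO cells, against 0.566 to 4.42 FPKM in wild-type cells. Obox3 against GFP in Nr5a2 KO cells brought 3 members up and none down (3.29% and 0.272% of all genes). Dnajb14 had 14.9 and 27.2 FPKM with Obox3 and 3.19 and 1.62 FPKM with GFP (log2 fold change 2.68, SE 0.52, limma adjusted p = 0.00469). Dnajc12 had 17.3 and 21.4 FPKM with Obox3 and 3.60 and 5.80 FPKM with GFP (log2 fold change 1.86, SE 0.42, limma adjusted p = 0.0150), and Dnajb6 had 131 and 105 FPKM with Obox3 and 41.2 and 47.5 FPKM with GFP (log2 fold change 1.39, SE 0.38, limma adjusted p = 0.0498). With median-of-ratios scaling 4 rose and 1 fell (4.21% and 0.698% of all genes). The groups did not overlap for these 3 genes, a condition for naming them, but 0 calls were made without the second Obox3 library and 1 without either GFP library. In Nr5a2 wild-type cells Obox3 had the same direction for Dnajb14, with 6.90 and 21.5 FPKM with Obox3 and 3.59 and 2.34 FPKM with GFP, without a call (1.77, limma adjusted p = 0.125), and the difference between the backgrounds was not tested.

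Dnajb14 was called lower in mzKO late 2-cell embryos, without a call at the 4-cell time, and higher with Obox3 in Nr5a2 KO cells. Its mzKO call was lost without the third mzKO library, and its Obox3 call without the second Obox3 library. The share of all genes with both calls was not counted. The 200 bases upstream of Dnajb14, at chr3:137867475-137867674, plus strand, are shown because of these calls. They hold no TAATCC on either strand, and the sequence carries no capitals.
Dnajb14: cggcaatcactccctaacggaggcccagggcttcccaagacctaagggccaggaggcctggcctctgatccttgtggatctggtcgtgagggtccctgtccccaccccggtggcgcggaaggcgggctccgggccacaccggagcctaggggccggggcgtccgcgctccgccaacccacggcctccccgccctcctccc
Obox5 gave 0 called members in Nr5a2 KO and 0 in Nr5a2 wild-type cells, and Obox3 gave 0 in wild-type cells (7, 4 and 10 members and 692, 767 and 2200 of all genes at an unadjusted p under 0.05; 0.935%, 0.663% and 0.935% of all genes called). With the replicate number as a block, members were called in each of these comparisons, as counted in the closing section. Nr5a2 KO against wild-type cells with GFP had 2 members higher and 1 lower (0.824% and 1.22% of all genes). Hspb2, a small heat shock protein of muscle, had 16.1 and 22.0 FPKM in Nr5a2 KO and 2.22 and 1.01 FPKM in wild-type cells (log2 fold change 2.96, SE 0.50, limma adjusted p = 0.00296), Hspb6 rose by 1.71 and Dnajb13, an axonemal J protein, fell by 2.24. Without the filter on low values none of these was called, and 1 was called without the second KO or the first wild-type library.

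**Figure D5:**
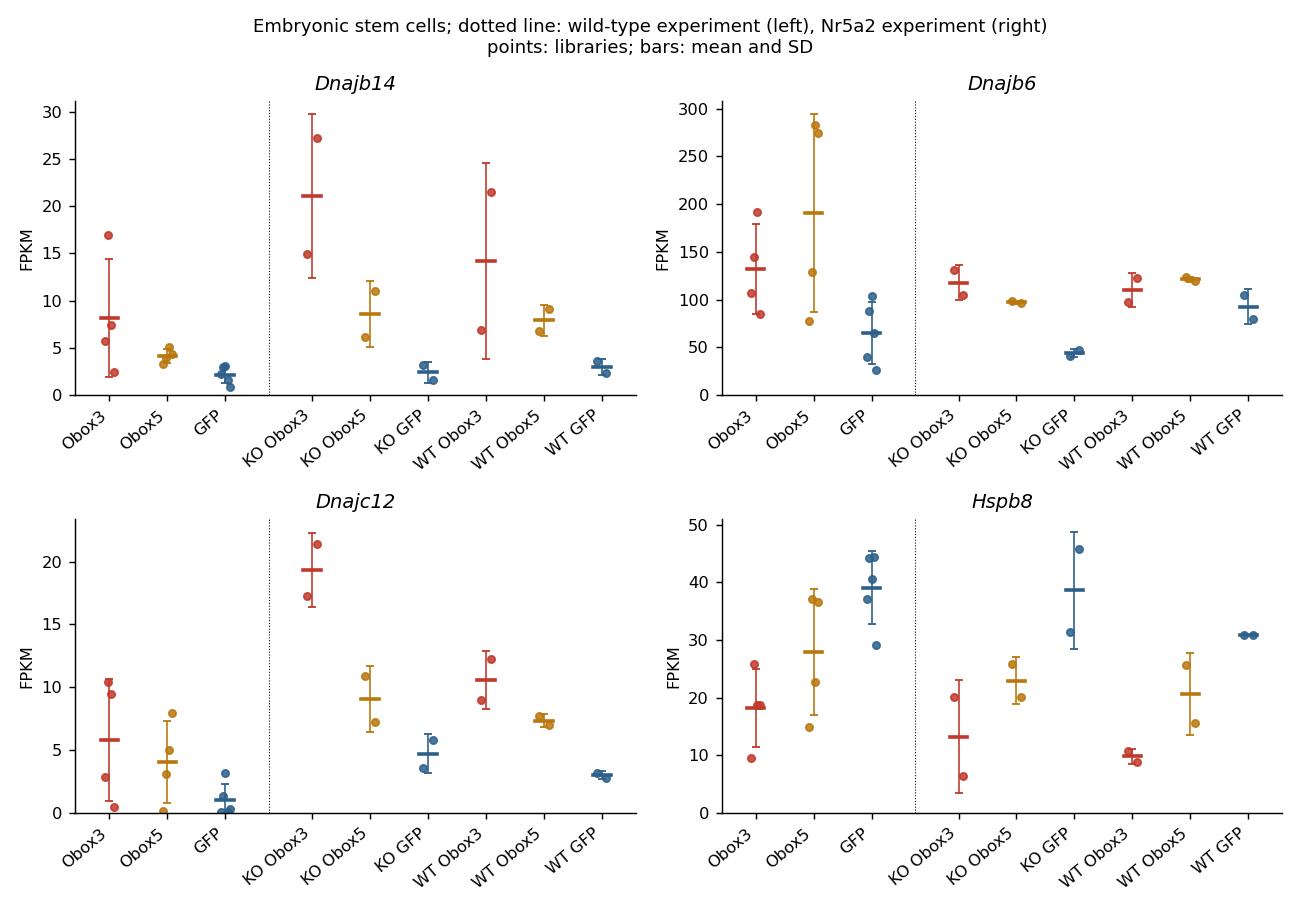
FPKM of 4 chaperone genes in embryonic stem cells, in the first experiment (left of the dotted line: Obox3, Obox5, GFP) and in Nr5a2 KO and wild-type cells with the same constructs (right). Points are libraries and bars are mean and SD. Dnajb14 is higher with Obox3 than with GFP in both Nr5a2 KO libraries, 14.9 and 27.2 against 3.19 and 1.62 FPKM.

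Partners of these chaperones outside the named families were read from a list of 48. Among them were prefoldins, BAG proteins, immunophilins and oxidoreductases of the endoplasmic reticulum. Shares of all genes under the other scalings are those given above for the members. In wild-type embryos 22 of 46 tested rose and 1 fell between the early and late 2-cell stage, beside 34.2% and 3.16% of all genes; with Rn45s left out 18 of 48 rose and 1 fell, and with median-of-ratios scaling 8 of 45 rose and 7 fell. Prefoldin subunit Pfdn6, which hands clients to the chaperonin, rose by 4.38, the HSP90 partners Fkbp4 and Stip1 by 4.02 and 2.77, and Bag1 by 3.68 on the log2 scale. In mzKO against wild-type late 2-cell embryos 2 fell, Cdc37, which brings kinases to HSP90 (-1.62), and Bag6 (-1.38), beside 10.7% of all genes; either other scaling gave 1 up and 1 down. Both fell at the 4-cell time as well (-1.30 and -1.37), when 6 of 46 rose and 5 fell, beside 14.2% and 10.4% of all genes (9 and 1 with Rn45s left out, 3 and 8 with median-of-ratios scaling). Those that rose included the endoplasmic reticulum genes Calr, Pdia6 and Hyou1 (1.71, 1.66 and 1.18), and those that fell included the HSP90 partners Stip1 and Ppid (-2.03 and -1.76). Of the 3 members with the endoplasmic reticulum stress element, Hsp90b1 rose in FPKM and Hspa5 and Dnajc3 had no FPKM call. In mKO embryos 10 of 43 fell, -2.74 for Pfdn6 and -1.82 for Cdc37 among them, beside 11.4% of all genes, and 0 were called with Rn45s left out or with median-of-ratios scaling.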

How the data were processed

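Among the tools listed by the submitters' processing notes, without their roles, are StringTie 2.1.2 and HISAT2 2.2.1, with mm9 as the build. The authors deposited FPKM per gene in 7 tables of 24143 names. 27 names turned into dates by a spreadsheet were left out. Read depth is not given, so no counting error can be stated. In each table the replicated groups (90 libraries in 36 groups) entered one limma 3.58.1 fit (R 4.3.3) on log2(FPKM + 1) with trended, robust moderation. Genes at 1 FPKM or more in at least 2 libraries were tested, with Benjamini-Hochberg adjustment over all of them; fold changes on this scale understate low genes. Residual degrees of freedom were 16 for the oocyte and mzKO table, 2 for mKO, 9 for Obox-- and Obox+-, 11 for knockdowns, 10 for stem cells and 6 for Nr5a2. 31 pairs and 3 differences between steps were fitted; 17 single-library groups had no test. Where leaving out a library left 1 in a group, that library was assumed to vary like the other groups. The fit was tested on simulated data.

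Same-numbered libraries deviated together for Obox3 against GFP (correlations 0.637, 0.674, 0.624, 0.276) and Obox5 against GFP (0.613, 0.414, 0.637, 0.572), which pairs them by the data, not the labels. Some comparisons with 2 libraries a group reached similar values: 0.655 for mzKO early 2-cell, 0.621 for Obox KO FGO and 0.688 for siObox4. In Obox KO against wild-type MII oocytes same-numbered libraries deviated in opposite directions (-0.316). Named genes were 29 core chaperones and, per comparison, the 8 called members with the largest change each way among those with non-overlapping libraries and a mean of at least 5 FPKM in the higher group; other genes named, such as Hspa1l, Dnajc22 and Hspb8, were chosen after their values were seen. Alternatives are in the closing section. The members and all lists were chosen with earlier results of these data known. Sequences are from RefSeq, GRCm38.p6.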

Additional observations from a re-analysis of the deposited data

Results flagged for a closer look

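Groups of 4 or 5 libraries allowed a check for single libraries far from their group. These were the GFP, Obox3 and Obox5 stem cells of the first experiment and the late 2-cell Obox-- embryos. Of 106 sets of values 4 stood out, all in stem cells, where chance alone gives about 1 in 20. Cct6b, a chaperonin subunit variant known from testis, had 1.51 FPKM in the second GFP library, while the other 4 had 0 to 0.431 FPKM. The same gene had 1.07 FPKM in the first Obox3 library against 0.258 to 0.365 FPKM in the other 3. Cct3 had 252 FPKM in the fourth Obox3 library against 421 to 439.9 FPKM in the others, and Cct7 had 253 FPKM in the first Obox5 library against 407 to 419.8 FPKM in the others. The step from early to late 2-cell differed between mzKO and wild-type embryos for Dnajc4 by -2.63 (log2; limma adjusted p = 0.0410) and for Cct8l1 by -1.46 (limma adjusted p = 0.0220). Dnajc4 had 4.90, 1.85 and 3.51 FPKM in late and 3.44 and 1.57 FPKM in early mzKO embryos, against 24.0, 25.5 and 26.0 FPKM in late and 5.03 and 0.888 FPKM in early wild-type embryos. Late and early libraries overlapped in mzKO embryos and did not overlap in wild-type embryos. Cct8l1 was listed at 0 FPKM in all late and early mzKO libraries, against 2.30, 1.96 and 2.52 FPKM in late and 0.242 and 0.119 FPKM in early wild-type embryos.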

How the results depend on the processing

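For each setting the count of called members under it is given first and, after the word against, the count in FPKM with limma. With Rn45s left out and libraries rescaled the count was 7 against 16 for MII against FGO, 12 against 19 for early 2-cell against MII, 26 against 17 for blastocyst against 4-cell, 3 against 1 for 4-cell time against late 2-cell mzKO, 0 against 2 for the difference between the mzKO and wild-type step to late 2-cell, 0 against 13 for mKO, 1 against 0 for siObox4, 2 against 0 for Obox3 and 1 against 0 for Obox5 in stem cells, and 1 against 0 for Obox3 in Nr5a2 wild-type cells. With median-of-ratios scaling it was 20 against 42 for late against early wild-type 2-cell, 11 against 6 for wild-type 4-cell against late 2-cell, 12 against 19 for late against early mzKO 2-cell, 3 against 1 for 4-cell time against late 2-cell mzKO, 36 against 58 for arrested embryos, 0 against 2 for the step to late 2-cell and 1 against 0 for the step to the 4-cell time, 0 against 13 for mKO, 1 against 0 for Obox-- at early 2-cell, 3 against 0 for Obox3 and 1 against 0 for Obox5 in stem cells, and 2 against 0 for Obox3 in Nr5a2 wild-type and 5 against 3 in Nr5a2 KO cells. Without the filter on low values it was 2 against 6 for wild-type 4-cell against late 2-cell, 0 against 1 for 4-cell time against late 2-cell mzKO, 1 against 2 for the step to late 2-cell, 0 against 13 for mKO and 0 against 3 for Nr5a2 KO against wild type. With a pseudocount of 0.1 it was 8 against 16 for MII against FGO, 1 against 0 for mzKO early 2-cell, 5 against 8 for mzKO late 2-cell, 0 against 2 for the step to late 2-cell, and 1 against 0 for Obox3 and for Obox5 in stem cells. With the replicate number as a block it was 14 against 8 for mzKO late 2-cell, 28 against 17 for mzKO 4-cell time, 2 against 1 for 4-cell time against late 2-cell mzKO, 1 against 0 for Obox-- at early 2-cell, 2 against 0 for Obox3 and 1 against 0 for Obox5 in stem cells, 7 against 3 for Nr5a2 KO against wild type, 5 against 0 for Obox3 in Nr5a2 wild-type and 7 against 3 in KO cells, and 1 against 0 for Obox5 in Nr5a2 wild-type and 3 against 0 in KO cells. No other count moved by over 1.5 times. By the labels the libraries share only a number. The deviations of same-numbered libraries correlated at 0.471 and 0.456 for Obox5 in Nr5a2 wild-type and KO cells. For Obox3 in these cells the correlations were 0.315 and 0.223, and for Nr5a2 KO against wild type 0.143. Crossing the replicate numbers, a setting chosen after seeing the data, gave 23 against 13 for mKO and moved no other of the 3 counts so tried. The causes were not tested.

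Leaving out single libraries gave 0 to 14 calls for MII against FGO, 7 to 37 for early 2-cell against MII, 17 to 53 for late against early wild-type 2-cell, 1 to 7 for wild-type 4-cell, 9 to 17 for blastocyst, 4 to 8 for mzKO late 2-cell, 11 to 22 for mzKO 4-cell time, 6 to 19 for late against early mzKO 2-cell, 0 to 4 for 4-cell time against late 2-cell mzKO, 0 to 3 for the step to late 2-cell and 0 to 1 for the step to the 4-cell time, 43 to 59 for arrested embryos, 0 to 29 for mKO, 0 to 1 for Obox-- at early 2-cell, 0 to 2 for Obox3 and 0 to 1 for Obox5 in stem cells, 1 to 2 for Nr5a2 KO, 0 to 1 for Obox3 in Nr5a2 wild-type and 0 to 3 in KO cells.

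Reversed directions lay in the comparison of arrested embryos with the 4-cell time. With Rn45s left out and with median-of-ratios scaling the log2 fold changes were 0.63 and 0.75 for Cct2, 0.019 and 0.16 for Cct8, 1.47 and 1.60 for Hsp90aa1, 0.25 and 0.35 for Hspa4, 0.19 and 0.32 for Hspa8, 0.10 and 0.23 for Hspd1, 0.59 and 0.71 for Hspe1, and 1.34 and 1.40 for Hsph1, all below 0 in FPKM. Rescaled without the first arrested library, a setting chosen after seeing the data, Hsf2 was 1.02, Hsp90aa1 1.31, Hspa4 0.99, Hspd1 0.90 and Hsph1 0.69. In late against early wild-type 2-cell embryos median-of-ratios scaling gave -0.070 for Hsp90aa1 and -0.16 for Hspd1. Among 201 called or core gene results, 148 kept direction and side of the threshold with Rn45s left out, 133 with median-of-ratios scaling, 199 with the block, 166 without the filter and 176 with a pseudocount of 0.1; of 1071 single-library omissions 839 did. Leaving the arrested libraries out of the fit kept 109 of 110, also chosen after seeing the data. Library depth is unknown, so precision rests on 2 to 5 libraries a group.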

Other observations

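Over the 6 wild-type stages, the members whose mean log2(FPKM + 1) profile was most like that of Hspa1b were Hspa1a (0.974), Cct8l1 (0.954), Dnajb13 (0.933), Dnajc12 (0.931) and Dnajb14 (0.917), by Pearson's correlation over these 6 stage means, given as a description. Hspa1b itself averaged highest in 4-cell embryos at 0.750, 0.529 and 0.871 FPKM and was 0.00927 and 0.0465 FPKM in blastocysts. Among partner genes, 8 rose and 4 fell in blastocysts against 4-cell embryos, beside 10.5% and 17.7% of all genes. In arrested mzKO embryos against the 4-cell time none of 46 rose and 42 fell, beside 0.801% and 60.7% of all genes; these libraries are 55.4 and 71.5% Rn45s, and rescaling without it gave 7 up and 25 down, median-of-ratios scaling 6 up and 20 down. In Nr5a2 KO against wild-type stem cells with GFP 1 rose, Cryab, a small heat shock protein known as alpha-B crystallin whose gene neighbours Hspb2 (3.35).

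The abundant members changed with stage. The 6 most abundant genes made up 61.6% of the member sum in wild-type MII oocytes, led by Hsp90aa1, Dnajb4 and Hsp90ab1. They made up 38.1% in late 2-cell embryos, led by Dnajb9, Hsp90aa1 and Hspa8, and 77.9% in blastocysts, led by Hsp90aa1, Hspa8 and Hsp90ab1. No further hypothesis was tested.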
